A study of Mus musculus with 10 samples.

Results

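ERVK elements are a family of mouse endogenous retroviruses, and their transcripts were examined here in a direct RNA sequencing experiment on P19 cells. The members were all alignments that the deposited table assigns to the LTR class and the ERVK family, irrespective of the quality of their tail estimate. They came to 18119 reads of 2577272, or 0.703%, with 32138 of the 2652217 alignments. These alignments fell on 2884 annotated copies of 218 subfamilies. No alignment to an annotated mRNA was listed for 9252 of the ERVK reads, whereas the other 8867 (48.9%) also had one. A poly(A) tail estimate of PASS quality, the tag for a usable estimate, was available for 6215 ERVK reads.

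The study lowered Larp1, an RNA-binding protein known for its role on mRNAs with a 5′-terminal oligopyrimidine motif, and measured the length of poly(A) tails. P19 is a mouse embryonal carcinoma line, and all libraries came from undifferentiated cells of wild-type genotype. Control cells received scrambled siRNAs (siCtl) and knock-down cells a Larp1 siRNA (siLarp1), and both were collected at 24 h, or at 48 h after a second transfection at 24 h. The 24 h libraries, 3 per treatment, were numbered 19, 21 and 22, and the 48 h libraries, 2 per treatment, 24 and 25. Every group was thus transfected, and all knocked-down cells carried the same single siRNA. The treatments of 24 h were multiplexed in separate barcoded pools, which means that treatment and pool cannot be told apart there. The 4 libraries of 48 h formed 1 pool. Each library held between 141919 and 541959 reads.

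ERVK elements are relatives of betaretroviruses that entered the germ line and multiplied by copying their RNA back into the genome. A complete copy has an internal region flanked by a pair of long terminal repeats (LTRs), and the LTR supplies both the promoter and the polyadenylation signal. Early transposons (ETn) and MusD elements, which share LTRs, and intracisternal A particles (IAP) are the ERVK groups best known for activity in mouse, and pluripotent cells hold many of them in check through KRAB zinc finger proteins, Trim28 and Setdb1.

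The sequences below show the stretch on which most ERVK tails were read. The first is the part of an ETn-type LTR from its first base to base 205, the most frequent last aligned base of PASS reads named to ERVB7_1-LTR_MM. It is the copy at chr17:32376200-32376404 (GRCm38, plus strand), inside exon 4 of a retained-intron transcript of Wiz, which runs on the minus strand, and was chosen because it lies in an annotated exon, although just 20 reads were written to it. The next 2 are the last 60 bases before the shared read end in the LTRs inside Vmn2r97 (chr17:18931621-18931680, minus strand) and inside Wiz (chr17:32376345-32376404, plus strand). The last is the end of an RMER4B copy in 2010204K13Rik (chrX:7412108-7412167, minus strand), shown because its PASS reads ended at the last base of the copy. Capitals mark AATAAA, the polyadenylation signal, and all sequences were taken from GENCODE M21 transcripts.
ERVB7_1-LTR_MM copy in Wiz: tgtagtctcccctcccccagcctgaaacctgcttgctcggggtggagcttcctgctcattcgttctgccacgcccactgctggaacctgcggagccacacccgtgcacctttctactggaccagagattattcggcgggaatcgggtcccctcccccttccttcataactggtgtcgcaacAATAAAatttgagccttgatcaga
LTR in Vmn2r97: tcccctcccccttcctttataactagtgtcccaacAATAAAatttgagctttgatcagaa
LTR in Wiz: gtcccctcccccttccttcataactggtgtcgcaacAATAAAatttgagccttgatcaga
RMER4B copy in 2010204K13Rik: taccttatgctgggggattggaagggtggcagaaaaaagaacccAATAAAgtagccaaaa

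AATAAA, searched on the printed strand, lay 18 bases before the shared end in the Wiz copy and 19 bases before it in the Vmn2r97 copy. In the RMER4B copy it lay 10 bases before the last base, past which an alignment to the copy cannot run. The same 6 letters stood in the last 60 bases of 27.2% of 141515 annotated transcripts, and on the other strand of that window in 4.82%. A match of these letters is a description and not a test of their use.

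The knock-down and the identity of the cells were checked first. Larp1 was read at 72.4, 82.4 and 73.8 reads per 1000000 reads (RPM) in the siCtl libraries of 24 h and at 33.6, 36.3 and 20.5 RPM in the siLarp1 libraries. At 48 h it was at 141 and 122 RPM against 29.8 and 26.5 RPM. The siLarp1 libraries were lower at both times without overlap, which gave the smallest p-value of the exact permutation test within time points (p = 0.0167, two-sided). In the limma fit across all features, described below, Larp1 changed by -1.31 ± 0.38 at 24 h and -2.09 ± 0.54 at 48 h (log2, SE). That fit did not call it at either time (limma adjusted p = 0.557 and 0.136). All 10 markers of embryonal carcinoma cells were detected, and their summed level was 2954 to 3878 RPM across libraries, most of it Pou5f1. Over all libraries Pou5f1 had 6245 reads, whereas Dppa5a had 8, Trim71 37 and Sall4 43. The 5 neuron markers summed to 190 to 343 RPM, most of it Stmn2, the 4 fibroblast markers to 0 to 45.8 RPM, and the 5 endoderm markers to 0 to 19.9 RPM with Afp at 0 in every library.

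ETn/MusD sequences dominated the ERVK reads. MMETn-int, the internal region of ETn elements, was named in 9542 reads, 52.7% of all ERVK reads. ETnERV-int, the internal region of their ETnERV relatives, was named in 4474 reads, and RLTRETN_Mm, an ETn LTR, in 2069. Together the 5 subfamilies with an ETn or MusD name held 12747 reads or 70.4%. Names that belong to no listed group were often parts of the same molecules, since a read could align to several elements in a row, and 40.8% of the ERVK reads did so. An ETn internal region was also aligned in 92.5% of the RLTR13G reads, in 85.7% of the ERVB4_1C-LTR_Mm reads and in 55.5% of the ERVB7_1-LTR_MM reads. With these names included, ETn/MusD and its linked LTRs covered 14646 reads, or 80.8%.

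The remaining groups were small. IAP names, with 16 subfamilies, were found in 1405 reads or 7.75%, led by IAPEz-int with 1069 reads and IAPLTR1_Mm with 731. IAPEz-int is the internal region of IAP elements and IAPLTR1_Mm one of their LTRs, and 80.3% of the IAPLTR1_Mm reads continued into IAPEz-int. Only 3 reads carried both an IAP name and an ETn-linked one. MMERVK10 and its LTRs had 188 reads, and MMTV, the endogenous mouse mammary tumor virus, had 2. RMER4B, an LTR named in 282 reads, never co-occurred with an ETn internal region. The tail of the list was long: 33 of the 218 subfamilies had at least 30 reads, 12 had at least 100, and 176 had at least 2.

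Single copies could rarely be told apart. The mapping quality, a score for how uniquely a read was placed, was 0 in 24.9% of the ERVK alignments and reached 10 in 21.97%. The copy with the most reads was an MMETn-int at chr6:134010006-134014401 with 2292 reads and a median mapping quality of 0. It was followed by an MMETn-int at chrX:28842557-28843879 with 2224 reads and a median of 1. An ETnERV-int fragment at chrY:20754407-20754591 had 1896 reads and a median of 14. An MMETn-int at chr1:134400397-134404792 had 1777 reads, and an ETnERV-int at chr13:33056784-33062177 had 944. Since near-identical copies shared these reads, the counts describe the copy a read was written to, and not the copy that was transcribed.

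The share of ERVK reads was compared next, to ask whether lowering Larp1 changed how much ERVK RNA the cells held. At 24 h it was 0.667%, 0.560% and 0.649% in the siCtl libraries and 0.662%, 0.587% and 0.714% in the siLarp1 libraries. These ranges overlapped, with means of 0.626% ± 0.057 and 0.654% ± 0.064 (SD, n = 3 each, exact permutation p = 0.60, two-sided). At 48 h the siCtl libraries held 0.862% and 0.742% and the siLarp1 libraries 1.01% and 0.939%. Both siLarp1 libraries were above both siCtl libraries, and the mean was 1.21 times higher, 0.972% ± 0.047 against 0.802% ± 0.085 (SD, n = 2 each). The exact test cannot go below p = 0.333 with 2 against 2 libraries, which is the value it gave. Without siCtl 25 the difference at 48 h fell from 0.170 to 0.110 percentage points. Permuted within time points over both times, the difference of 0.0995 percentage points had p = 0.10 (exact, smallest possible 0.0167) and 0.233 after Benjamini-Hochberg adjustment over 14 such tests. The change at 48 h was not shown to differ from that at 24 h (exact p = 0.30).

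ERVK reads without an mRNA alignment followed the same order. They made up 0.317%, 0.266% and 0.334% of the siCtl reads at 24 h and 0.325%, 0.313% and 0.370% of the siLarp1 reads, again with overlap. At 48 h the values were 0.423% and 0.425% against 0.534% and 0.501%, a ratio of 1.22 without overlap. The exact test within time points gave p = 0.0833 and an adjusted p of 0.233. When only alignments with a mapping quality of at least 10 were kept, the exact p was 0.0167 for all ERVK reads and 0.0333 for those without an mRNA alignment, so that passing this threshold depended on the mapping filter.

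There were 2 sequencing runs of the 48 h pool, and the order was checked within each. In the first run, ERVK reads were 0.839% and 0.730% in siCtl and 0.985% and 0.956% in siLarp1. In the second run they were 0.924% and 0.773% against 1.06% and 0.894%, so that 1 siLarp1 library fell below 1 siCtl library. Without reads on mRNAs the groups did not overlap in either run, with 0.420% and 0.424% against 0.519% and 0.505% in the first and 0.432% and 0.425% against 0.573% and 0.490% in the second. The siCtl libraries of 48 h were above those of 24 h throughout, but the time points came from different pools, and time and pool cannot be told apart.

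**Figure D1:**
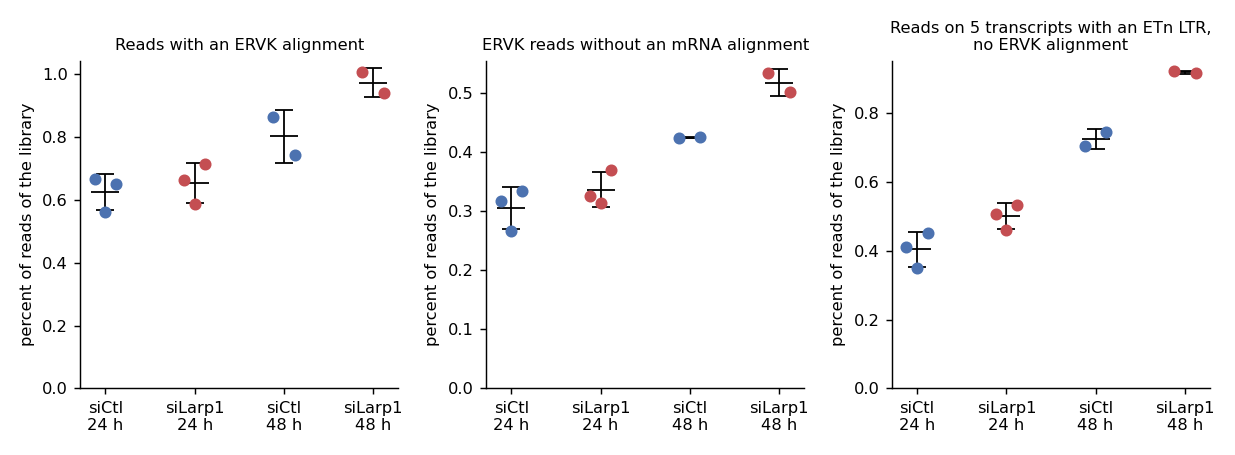
Percent of the reads of a library (y axis) by treatment and time. Each point is 1 library, the long line is the group mean and the whiskers are 1 SD. The first 2 panels show all ERVK reads and ERVK reads without an mRNA alignment. The last shows reads without any ERVK alignment on 5 annotated transcripts with a match to an ETn-type LTR. The groups overlap at 24 h in the first 2 panels, and the siLarp1 libraries of 48 h are above the siCtl libraries in all 3.

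Relative to other repeats, ERVK reads showed no difference past the threshold. The log2 ratio of ERVK reads to reads on other LTR families averaged 2.23 in siCtl and 2.13 in siLarp1 at 24 h, and 2.30 and 2.57 at 48 h. Its change within time points was 0.08 (exact p = 0.40). Against LINE elements, a class of retrotransposons without LTRs, the change was 0.21 (exact p = 0.20), and against SINE elements, their short non-coding counterparts, it was 0.07 (exact p = 0.20). At 48 h all of these ratios were higher in siLarp1 without overlap, by 0.27 (other LTR families), 0.39 (LINE) and 0.14 (SINE). The exact test cannot go below p = 0.333 there. At 24 h the groups overlapped, and the changes were -0.10, 0.02 and -0.004 in the same order.

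By group, ETn/MusD reads averaged 4386 ± 518 RPM in siCtl and 4655 ± 531 RPM in siLarp1 at 24 h (SD, n = 3 each), with overlap of the libraries. At 48 h they averaged 5549 ± 1091 and 7064 ± 487 RPM (SD, n = 2 each), a ratio of 1.27 without overlap. The difference of 892 RPM within time points had p = 0.117 in the exact test, adjusted 0.233, and was 506 RPM without siCtl 25. IAP reads averaged 483 and 482 RPM at 24 h and 657 and 716 RPM at 48 h, and the groups overlapped at both times (exact p = 0.617). MMERVK10 reads were at 53.1 and 59.4 RPM at 24 h and at 119 and 116 RPM at 48 h (exact p = 1.0). At 48 h internal regions of all ERVK elements averaged 5939 RPM in siCtl and 7511 RPM in siLarp1, and LTRs 5038 and 5913 RPM (exact p within time points 0.10 and 0.0667, adjusted 0.233 each).

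Single subfamilies were tested in a fit across all genes and repeat subfamilies with at least 30 reads at a time point, by limma voom on reads scaled to the library total. At 24 h, 27 ERVK subfamilies were tested and none was called at an adjusted p under 0.05, while 2 had an unadjusted p under 0.05. In that fit 0.0179% of 5584 features were called and 5.48% had an unadjusted p under 0.05. At 48 h, 12 were tested and 1 was called, against 0.0613% of 3265 features. At an unadjusted p under 0.05 there were 5, all higher in siLarp1, beside 5.05% of all features in either direction. The median log2 change of the 12 was 0.30 and 11 were above 0, beside a median of 0.03 over all features. Since the names share reads, these 12 values are not independent of each other.

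The call was MMETn-int. At 24 h it was at 3786, 2965 and 3307 RPM in siCtl and at 3711, 3056 and 3751 RPM in siLarp1, with overlap. At 48 h it was at 4820 and 3282 RPM in siCtl and at 5321 and 5095 RPM in siLarp1, higher in both knock-down libraries. The log2 change at 48 h was 0.44 ± 0.09 (SE, limma adjusted p = 0.0099), against 0.08 ± 0.08 at 24 h. These SEs are moderated by limma over all features and are not the spread of the libraries. The difference between the times was not shown (exact permutation p = 0.40 on RPM). The value depended on the control library siCtl 25: without it the change was 0.12 (limma adjusted p = 0.966), and without siLarp1 24 it was 0.41 and past no threshold (limma adjusted p = 0.852). The call was also lost for reads without an mRNA alignment (0.37, limma adjusted p = 0.585) and with TMM scaling factors (0.34, limma adjusted p = 0.558). In siCtl 25 the aligned part of an ERVK read had a median of 926 nt, against 1205 to 1353 nt in the other 9 libraries. Its ratio of MMETn-int reads to ERVB7_1-LTR_MM and RLTRETN_Mm reads was 1.34, against 1.61 to 1.98 elsewhere.

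The other ETn-linked names showed changes of similar size that did not pass the test. RLTR13G was at 1865, 1431 and 1841 RPM in siCtl and at 1983, 1858 and 2149 RPM in siLarp1 at 24 h. At 48 h it was at 2579 and 2125 RPM against 3139 and 2687 RPM. RLTRETN_Mm was at 730, 540 and 727 RPM against 733, 799 and 808 RPM at 24 h, and at 1008 and 923 RPM against 1240 and 1128 RPM at 48 h. It was the ETn-type name whose groups did not overlap at either time. The log2 changes at 48 h were 0.34 ± 0.11 for RLTR13G, 0.31 ± 0.15 for RLTRETN_Mm, 0.29 ± 0.12 for ERVB7_1-LTR_MM and 0.38 ± 0.11 for the internal region ETnERV-int (SE), with limma adjusted p-values of 0.336 or more. For IAPEz-int the value was 0.19 ± 0.19 and for IAPLTR1_Mm 0.16 ± 0.20 on the same scale. Exact permutation tests of RPM within time points were added for the 10 subfamilies with the most reads, after the values were seen. The unadjusted p was 0.0167 for RLTRETN_Mm, 0.0333 for RLTR13G, and 0.05 for ETnERV-int and ERVB7_1-LTR_MM. It was 0.10 or more for the other 6, MMETn-int with 0.133 among them. As the names share reads, these tests are not independent of each other.

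By the order of libraries alone, 7 of the 12 tested subfamilies had all siLarp1 libraries above all siCtl libraries at 48 h, where 19.1% of all features did. They were MMETn-int, RLTR13G, ETnERV-int, ERVB7_1-LTR_MM, RLTRETN_Mm, ERVB4_1C-LTR_Mm and IAPEz-int. RLTR19-int lay below, as did 14.8% of all features. At 24 h, 2 of 27 lay above (RLTRETN_Mm and RLTR19-int), beside 5.18% of all features, and 2 lay below (IAPLTR1a_Mm and RLTR9D), beside 6.3%. The shares at 24 h were thus close to those of all features.

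**Figure D2:**
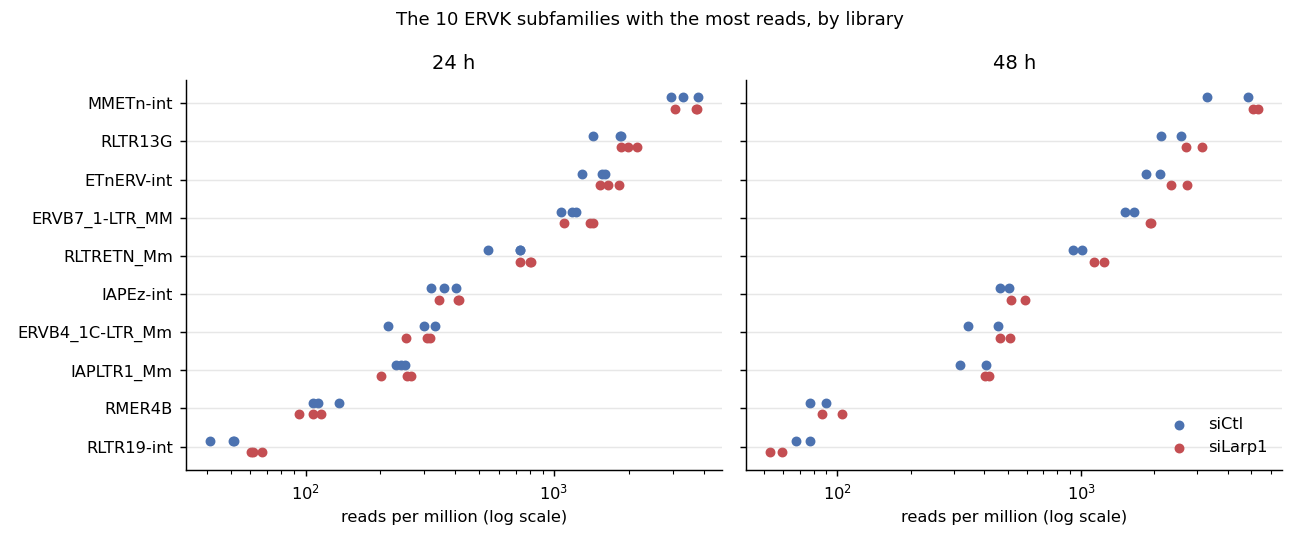
RPM (x axis, log scale) of the 10 ERVK subfamilies with the most reads, 1 point per library, siCtl in blue and siLarp1 in red, at 24 h and 48 h. At 48 h the red points lie at higher RPM than the blue ones in 7 of the 10 rows, and at lower RPM for RLTR19-int. Of all features, 19.1% lay higher and 14.8% lower in this way.

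**Figure D3:**
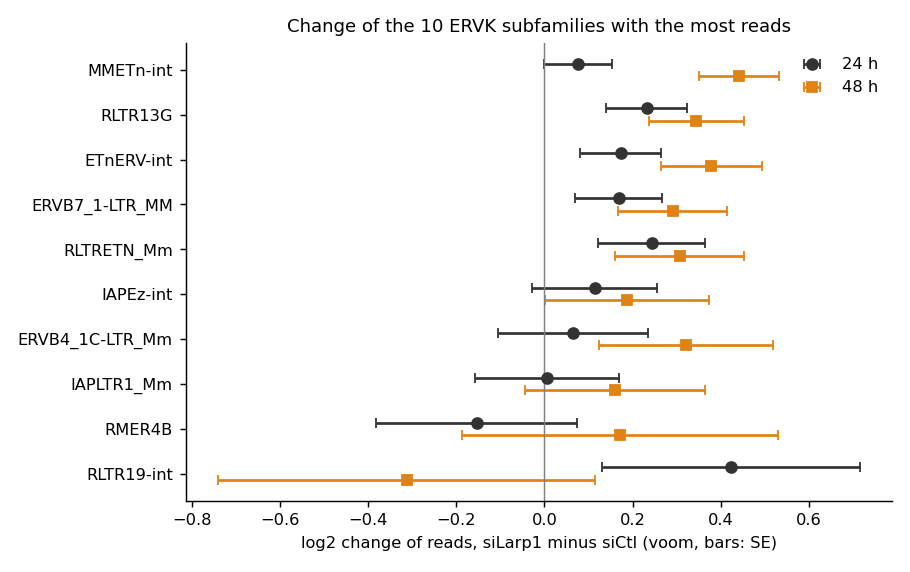
Log2 change of reads, siLarp1 minus siCtl (x axis), for the same 10 subfamilies at 24 h (circles) and 48 h (squares), with bars of 1 SE from limma voom. MMETn-int at 48 h, at 0.44, is the value that passed the test.

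Reads that reached an ETn-type LTR ended at a fixed base inside it. PASS alignments named to ERVB7_1-LTR_MM began within 5 bases of the first LTR base in 85.3% of cases. An alignment cannot begin before its copy, and 55.5% of the ERVB7_1-LTR_MM reads also aligned to an ETn internal region. These starts therefore do not give where the RNA began. The same alignments ended within 5 bases of LTR base 205 in 89.7% of cases, in copies with a median length of 317 bases. RLTRETN_Mm reads shared this end, with 89.6% within 5 bases of base 205 of 321. IAPLTR1_Mm reads ended over a wider stretch, with quartiles at bases 278 and 304 and a median of 286.5 of 353 bases. RMER4B reads ended at the last base of the copy, 277 of 277. MMETn-int alignments ran to within 15 bases of the end of the copy in 88.0% of cases. An alignment cannot run past the last base of its copy. For RMER4B and MMETn-int these ends alone therefore do not show where the RNA ended.

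The quality tags differed between the internal regions and the LTRs. The tag SUFFCLIP, given where the alignment stops short of the read end, was on 78.8% of the alignments to internal regions and on 42.1% of those to LTRs. PASS was on 2.45% of the internal alignments and on 39.8% of the LTR alignments, against 82.5% of mRNA alignments. ERVK tails were measured mainly on ERVB7_1-LTR_MM (2648 PASS reads), RLTRETN_Mm (1644) and IAPLTR1_Mm (590).

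Many ETn reads were also aligned to annotated transcripts that contain a match to an ETn-type LTR. Of the MMETn-int reads, 34.8% had an alignment to Vmn2r97, a vomeronasal receptor gene, 12.8% to Olfr318, an olfactory receptor gene, 10.7% to Wiz, a gene for a zinc finger protein, and 3.0% to D10Wsu102e. The Vmn2r97 transcript (ENSMUST00000232325.1) held 10434 reads, of which 33.4% also had an ERVK alignment. Its exon 5 contains an LTR at chr17:18931508-18931827 with 93.1% identity to the Wiz copy, in the orientation opposite to the transcript. The D10Wsu102e transcript (ENSMUST00000020488.8) held 7081 reads and an LTR at chr10:83459955-83460272 in exon 4, with 93.4% identity and the same opposite orientation. The lowest aligned base of the reads lay within 15 bases of a single position in 92.2% of the Vmn2r97 alignments, in 96.1% of those on Wiz and in 81.3% of those on D10Wsu102e. On the opposite strand this position was LTR base 206, 205 and 206, at or next to the base where reads named to ETn LTRs ended. The Olfr318 transcripts differed: their LTR at chr11:58717794-58718036 had 78.5% identity to the Wiz copy, 52.7% and 49.6% of the alignments had their lowest base within 15 bases of 1 position, and this was LTR base 86 on the opposite strand. The deposited table gives no strand, so reads from either strand of these transcripts were not separated here.

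**Figure D4:**
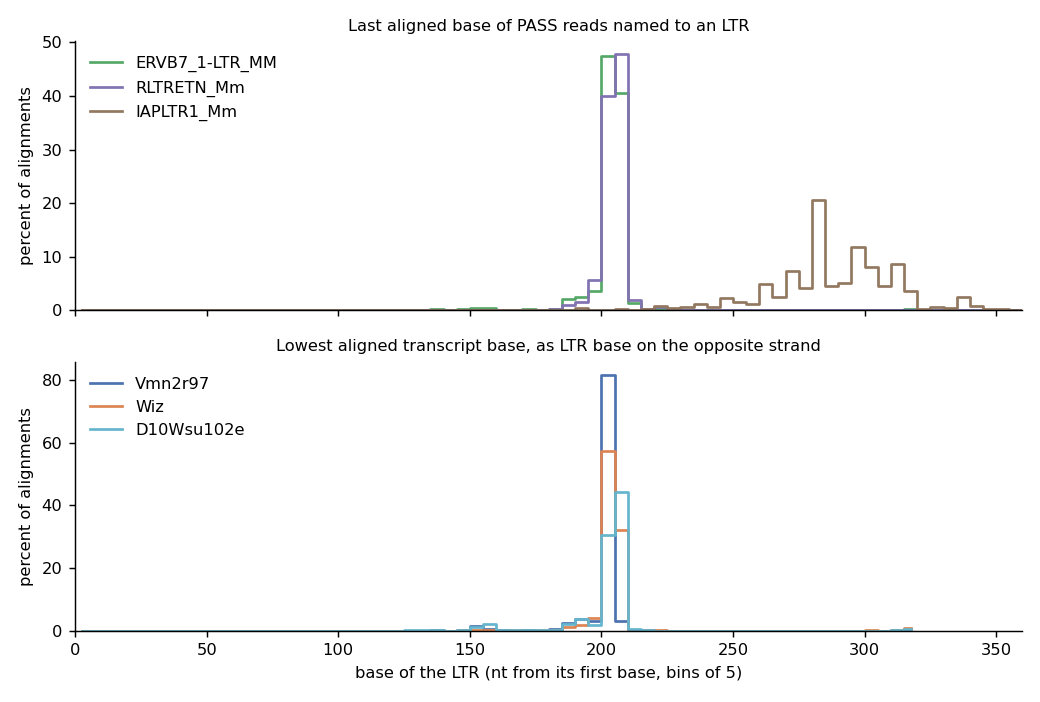
Upper panel, last aligned base of PASS reads (percent of alignments, bins of 5 bases) along 3 ERVK LTRs, counted from the first LTR base. Lower panel, lowest aligned transcript base on Vmn2r97, Wiz and D10Wsu102e, converted to the LTR base on the opposite strand; both panels peak at bases 205 and 206 for ETn-type LTRs, whereas IAPLTR1_Mm ends are spread around base 281.

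ERVK tails were longer than those of mRNAs in every library. The median tail of ERVK reads was 131, 128 and 123 nt in the siCtl libraries and 126, 124 and 123 nt in the siLarp1 libraries of 24 h. At 48 h it was 122 and 124 nt against 126 and 125 nt. All 10 medians thus lay between 122 and 131 nt, and their mean was 125 nt beside 98.8 nt for mRNA reads. The difference of 26.5 ± 3.1 nt (SD, n = 10) had the same sign in 10 of 10 libraries, with p = 0.002 in an exact sign-flip permutation test, the smallest it can give, and 0.0023 after adjustment over 6 tests. ERVK medians were also above those of LINE reads by 37.7 nt and of SINE reads by 24.1 nt, in 10 of 10 libraries each (exact permutation p = 0.002). The distance to other LTR families was 7.27 ± 7.07 nt, in 9 of 10 libraries (exact permutation p = 0.0098).

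The main tail carriers resembled each other. The median was 129 nt for ERVB7_1-LTR_MM with quartiles of 94.3 and 166 nt, 130 nt for RLTRETN_Mm and 121 nt for IAPLTR1_Mm. RMER4B had 111 nt over 205 PASS reads and RLTR19-int 99.9 nt over 92. Tails of 30 to 90 nt made up 23.9% of ERVK tails and 40.8% of mRNA tails as means over libraries, and tails under 30 nt made up 1.13% and 2.84%. Both shares were lower for ERVK in 10 of 10 libraries (exact permutation p = 0.002 each).

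The median tail of ERVK reads did not pass the test for a change upon Larp1 knock-down. The siCtl mean was 127 ± 4.3 nt and the siLarp1 mean 125 ± 1.6 nt at 24 h (SD, n = 3 each), with 123 ± 1.2 against 125 ± 0.21 nt at 48 h (SD, n = 2 each). The change was -2.56 nt at 24 h and 2.15 nt at 48 h, and within time points the exact p was 0.917. Tails of 30 to 90 nt made up 23.7% against 24.0% at 24 h and 25.2% against 22.5% at 48 h (exact p = 0.50 within time points). For single subfamilies, limma called none of the 9 tested at 24 h and none of the 6 at 48 h. None of them had an unadjusted p under 0.05, beside 0% called among 4869 and 2749 features and 262 and 172 features with an unadjusted p under 0.05.

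The share of ERVK tails under 30 nt had a lower mean in siLarp1 at both times, on few reads. Such tails made up 0.772%, 1.73% and 1.24% of PASS reads in siCtl and 0.623%, 0.270% and 0.837% in siLarp1 at 24 h, with overlap. At 48 h they were 1.55% and 2.18% in siCtl against 1.12% and 0.986% in siLarp1, without overlap. These shares rest on 1 to 15 reads per library, and the 95% Wilson interval of the lowest, 1 of 371 reads, ran from 0.0476% to 1.51%. The change within time points was -0.741 percentage points, with an exact p of 0.0333 and an adjusted p of 0.233. It did not keep its side of the threshold with limits of 25 nt (exact p = 0.15) or 35 nt (exact p = 0.30), nor without the reads that align to mRNAs (exact p = 0.117), and with a mapping quality of at least 10 it was 0.173 (exact p = 0.80).

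On mRNA reads of the same libraries, tails under 30 nt were more frequent in siLarp1. They were 2.19%, 2.39% and 2.13% in siCtl and 2.61%, 3.16% and 2.60% in siLarp1 at 24 h, and 2.96% and 2.81% against 4.18% and 3.35% at 48 h. All siLarp1 libraries were above all siCtl libraries of their time point. The change on ERVK reads minus that on mRNA reads was -1.22 percentage points at 24 h and -1.69 at 48 h. Tested within time points this difference gave p = 0.0167, the smallest value of the exact test and not adjusted. Its ERVK side rests on 1 to 15 reads per library, and the ERVK change had the opposite sign with a mapping quality of at least 10.

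**Figure D5:**
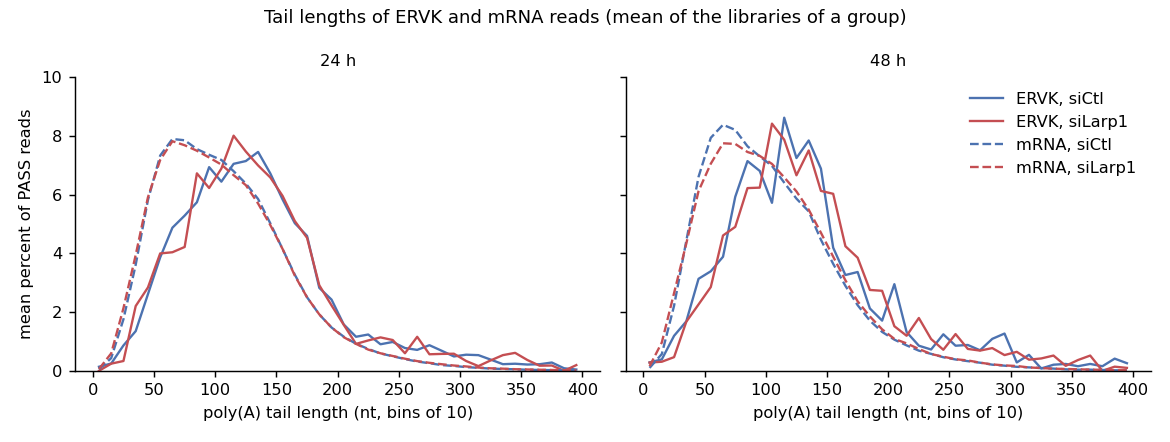
Distribution of poly(A) tail lengths (x axis, nt, bins of 10) as the mean percent of PASS reads (y axis) over the libraries of a group, for ERVK reads (solid) and mRNA reads (dashed), siCtl in blue and siLarp1 in red. The ERVK curves peak to the right of the mRNA curves at both times, with median tails of 125 and 98.8 nt.

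Genes that act in silencing of endogenous retroviruses were read from a list of 36, all of which were detected. Of these, 33 were tested at 24 h and 23 at 48 h, and limma called none at either time, with 1 and 0 at an unadjusted p under 0.05. Over all features, 0.0179% and 0.0613% were called and 5.48% and 5.05% had an unadjusted p under 0.05, so the list did not stand above them. Its median log2 change was 0.04 at 24 h and 0.09 at 48 h, beside 0.01 and 0.03 over all features. Among the members with the most reads were the histone H3.3 genes H3f3a and H3f3b, Sumo2, which encodes a SUMO modifier, and Trim28, the corepressor recruited by KRAB zinc finger proteins. Trim28 was at 472, 449 and 474 RPM in siCtl and at 457, 405 and 481 RPM in siLarp1 at 24 h, and at 585 and 477 against 585 and 677 RPM at 48 h. Its log2 change was -0.05 ± 0.13 at 24 h and 0.26 ± 0.18 at 48 h (SE). H3f3a, H3f3b and Sumo2 had log2 changes between -0.05 and 0.10 (limma adjusted p of 0.96 or more).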

How the data were processed

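Direct RNA libraries of oligo(dT)-selected RNA were prepared by the authors with barcoded adapters (SQK-RNA002) and run on R9 Nanopore flow cells. The authors called bases with Guppy, separated barcodes with Deeplexicon, aligned reads with Minimap2 2.20 (map-ont; mm10, GENCODE vM17, with repeats) and estimated tails with Nanopolish. Each line of the deposited table pairs a read with a sequence it aligned to and gives the tail length (nt), the barcode confidence (a fraction) and the mapping quality (a score). It holds no counts or normalized values, so reads were tallied here. A read was counted once per library or subfamily and scaled to all reads of its library (RPM).

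Groups came from the labels. The library numbers are those of the table, and which labelled replicate each is was not stated. The methods call the replicates biological. Group means were compared by exact permutation over libraries (two-sided), for a time point and within both. Single features were fitted in R 4.3.3 by limma 3.58.1, with voom on tallies, and weighted means of PASS tails, with at least 30 reads at a time point and Benjamini-Hochberg adjustment over all features. On simulated data at 48 h (3265 features), voom recovered 8% of 1.5-fold, 62% of 2-fold and 100% of 4-fold increases. The changed features were picked at random. Unchanged features had a median log2 estimate of -0.20 there, against 0.03 over all features in the real data. Wilson intervals cover counting error only. LTRs in transcripts were found with blastn 2.17.0 in GENCODE M21.

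The text names the 10 subfamilies and 5 copies with the most reads, any subfamily called, Larp1 and the 5 silencing genes with the most reads (1 of them is not reported here), plus a few named after their values were seen: IAPLTR1a_Mm, RLTR9D and the annotated transcripts. The members and lists were chosen with earlier results of these data known. Alternatives were other filters on barcode confidence, mapping quality, tags and read number, other tail limits and summaries, TMM factors, a replicate block and leaving out each library. The sequencing runs, the transcripts with a match to an ETn-type LTR, the linked LTR names and the exact tests of single subfamilies were added after seeing the data.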

Additional observations from a re-analysis of the deposited data

Results flagged for a closer look

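Reads without an ERVK alignment on the 5 annotated transcripts with a match to an ETn-type LTR lie outside the members. On the Olfr318 transcripts this match had 78.5% identity. Such reads were more frequent in siLarp1 libraries. They made up 0.411%, 0.350% and 0.452% of the siCtl reads and 0.508%, 0.461% and 0.534% of the siLarp1 reads at 24 h, a ratio of 1.24. At 48 h they made up 0.703% and 0.744% against 0.921% and 0.915%, a ratio of 1.27. The groups did not overlap at either time, where 5.18% of all features at 24 h and 19.1% at 48 h lay above without overlap, and the exact permutation test within time points gave p = 0.0167, the smallest it can give. These transcripts were chosen after their reads were seen, as those sharing at least 400 reads with ERVK elements. Most of the reads were on Vmn2r97 and D10Wsu102e, where the lowest aligned base lay at the shared LTR position in 91.7% and 81.6% of such alignments, and their median tails were 133 nt each. The limma fits counted all reads on Vmn2r97, of which 33.4% also had an ERVK alignment. Of the MMETn-int reads, 34.8% aligned to Vmn2r97, so these 2 features partly count the same reads. A fit of both time points together called Vmn2r97 (0.25, limma adjusted p = 0.0230). At 48 h Vmn2r97 was, beside MMETn-int, the other feature called by limma, with a log2 change of 0.37 ± 0.08 (SE, adjusted p = 0.0099). This call was lost with TMM factors (0.28, limma adjusted p = 0.558) and without siCtl 25 (0.24, limma adjusted p = 0.809), siLarp1 24 (0.35, limma adjusted p = 0.990) or siLarp1 25 (0.39, limma adjusted p = 0.136). Counted together with the ERVK reads, the share was 1.03% in siCtl and 1.16% in siLarp1 at 24 h and 1.53% and 1.89% at 48 h, with an exact permutation p of 0.05 within time points.

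RLTR19-int, an internal region named in 143 reads, was the subfamily whose change differed between the time points. At 24 h it was at 51.0, 41.2 and 51.7 RPM in siCtl and at 60.5, 66.6 and 61.4 RPM in siLarp1. At 48 h it was at 77.5 and 67.5 RPM in siCtl and at 59.5 and 53.1 RPM in siLarp1. The change at 48 h minus that at 24 h was -31.1 RPM (exact permutation p = 0.0167, the smallest possible and not adjusted). Of the 10 subfamilies with the most reads that were tested in this way, no other had an unadjusted p under 0.05. Its log2 changes in the limma fits, 0.42 ± 0.29 and -0.31 ± 0.43 (SE), did not pass the threshold.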

How the results depend on the processing

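The results were recomputed under 573 combinations of result and setting, of which 511 kept the direction and the side of the threshold. Values are siLarp1 minus siCtl within time points unless a time is given. With barcode confidence of at least 0.9, the median tail changed by 2.22 nt (24 h: 0.228 nt), the 30 to 90 nt share at 24 h by -0.371 points and MMERVK10 by -4.21 RPM. With mapping quality of at least 10, the ERVK share changed by 0.0668 points, that without an mRNA alignment by 0.0466 points, ETn/MusD by 519 RPM and internal regions by 469 RPM, all now past the threshold of the exact test. The median tail at 48 h changed by -6.83 nt, the share under 30 nt by 0.173 points (48 h: 0.625) and the 30 to 90 nt share at 24 h by -0.473 points. With PASS alignments alone the share without an mRNA alignment changed by 0.0476 points (exact p = 0.0333). With all tags the median tail changed by 1.70 nt (24 h: 1.54 nt) and the share under 30 nt by -0.216 points (48 h: 0.484), and with geometric means the tail changed by 2.21 nt (24 h: 0.4997 nt). The share under 30 nt lost its call with limits of 25 nt (-0.490) and 35 nt (-0.519) and for reads without an mRNA alignment (-0.501). For the latter, the median tail changed by 0.351 nt and MMERVK10 by -8.19 RPM. A class of 45 to 75 nt gave -1.26 points at 24 h.

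The number of ERVK subfamilies called at 48 h, 1 as reported, was 0 for reads without an mRNA alignment, with TMM factors and for single copies in place of subfamilies, and it was 0 in a fit of both time points together, where MMETn-int changed by 0.22 (limma adjusted p = 0.428). MMETn-int at 48 h was 0.37 without mRNA reads and 0.34 with TMM factors. At 24 h TMM factors, which moved the median of all features from 0.01 to -0.09, gave -0.026 for MMETn-int, -0.033 for ERVB4_1C-LTR_Mm and -0.091 for IAPLTR1_Mm. The causes were not tested.

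Leaving out 1 library gave a change of -0.0041 to 0.0622 points for the ERVK share at 24 h, 0.110 to 0.230 points for that at 48 h, -1.33 to 0.828 nt for the median tail, -0.898 to -0.585 points for the share under 30 nt and -0.631 to 1.34 points for the 30 to 90 nt share at 24 h. By group it gave 506 (without siCtl 25) to 1278 RPM for ETn/MusD, 572 (without siCtl 25) to 1270 RPM for internal regions, -7.31 to 65.0 RPM for IAP, -20.1 to 22.8 RPM for MMERVK10, 452 to 619 RPM for other ERVK and 497 to 698 RPM for LTRs. With ERVB7_1-LTR_MM, RLTR13G and ERVB4_1C-LTR_Mm counted in ETn/MusD, the change of ETn/MusD was 951 RPM and that of other ERVK 42.1 RPM (exact p = 0.517), against 538 RPM for other ERVK with these names in it. The calls at 48 h ranged from 0 to 1 and MMETn-int from 0.12 to 0.66. At 24 h ERVB4_1C-LTR_Mm ranged from -0.12 to 0.21 and IAPLTR1_Mm from -0.062 to 0.11.

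Same-numbered libraries deviated together with correlations of 0.031, 0.136 and 0.163 at 24 h and 0.119 at 48 h. For libraries with different numbers the correlations were negative, from -0.137 to -0.0064 at 24 h and -0.119 at 48 h. These negative values are not separate evidence, because deviations from a group mean cancel within the group. With 2 libraries per treatment at 48 h, they are the mirror of the value for the same numbers. Whether the numbers mark pairs was not stated, and the main tests did not use them as pairs. With the replicate block the share under 30 nt kept its change of -0.741 points at p = 0.0625 (exact). Limma then called 0 ERVK subfamilies at 24 h and 1 at 48 h, as without the block. Vmn2r97, which is no ERVK name, was called at 24 h with the block (0.17, limma adjusted p = 0.0114) but not without it (0.17, limma adjusted p = 0.870). At these depths, shares of tails under 30 nt rest on at most 15 reads per library. In the simulation, increases of 1.5 times were seldom recovered in features picked at random. That rate does not describe the subfamilies with the most reads, and MMETn-int at 48 h was called at a fold of 1.36.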
